A study of Mus musculus with 458 samples.

Results

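The expression of 36 genes of glycolysis and its control by oxygen was followed in 458 single haematopoietic stem cells (HSCs) of 6 transplanted mice. The set was a fixed list of names: glucose and lactate transporters, the glycolytic enzymes, the regulators of pyruvate dehydrogenase, and genes of the hypoxia-inducible factor (HIF) pathway. Of the 36 names, 35 were among the 22645 genes of the expression table, and the remaining name, Pkm2, is an older name of the gene listed as Pkm. Each C57BL/6 recipient had received a single Vwf+ HSC, and its blood reconstitution over 16 weeks gave its group. Multilineage mice (MUL) had all lineages, PEM mice were restricted to platelets, erythroid and myeloid cells, and PLT mice were restricted to platelets. Donor-derived cells were then index sorted from recipient bone marrow as LSK CD150+CD48-CD45.2+, where LSK is a lineage-negative, Sca-1 and Kit positive gate and CD45.2 marks the donor. The cells of a mouse descend from 1 transplanted cell, so each mouse is 1 clone in 1 host, and the ages of the mice are not given in the sources used here. There were 163 MUL cells (78 and 85 per mouse), 118 PEM cells (93 and 25) and 177 PLT cells (93 and 84). The titles of both MUL mice begin with the same code and those of each other mouse with a code of its own. What the code stands for is not stated, and whatever it marks cannot be told apart from the group.

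Glycolysis splits glucose into pyruvate, which is either reduced to lactate by lactate dehydrogenase or passed to the mitochondria through the pyruvate dehydrogenase complex. Pyruvate dehydrogenase kinases (PDKs) switch that complex off. HIF-1, whose oxygen-sensitive subunit is encoded by Hif1a, raises transcription of many glycolytic genes when oxygen is low, and quiescent HSCs in the bone marrow are known for a high reliance on glycolysis.

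The median depth of a cell was 4.90 M mapped reads (range 1.30 M to 17.3 M reads). Mean Kit was 30.2 to 109 RPKM (a read density, corrected for gene length and for each cell's read total). At least 3 of 10 genes listed for HSCs were at 1 RPKM or more in 32.3% to 80.6% of a mouse's cells. Besides Kit the list held Ly6a, Procr, Slamf1, Mecom, Hlf, Cd34, Flt3, Cd48 and Ptprc, and not all were high. Slamf1 ran from 4.25 RPKM (MUL mouse 2) to 78.3 (PLT mouse 1). Cd34 had 95.6 and 121 RPKM in MUL, 36.9 and 28.5 in PEM and 1.48 and 13.4 in PLT mice. Flt3 and Cd48 were at 0 in both PLT mice. The CD48 gate was matched by Cd48 at 1 RPKM or more in 0.873% of cells. PEM mouse 2 stood apart: it had only 25 cells, and its plates differed in median depth (3.20 M and 12.2 M reads). In this mouse 24% of cells had at least 3 of 10 neutrophil markers above 0, against 0% to 14% in the other mice. Counted the same way, 48% of its cells carried mature erythroid markers, against 5.38% to 21.8% elsewhere. For B cell markers the share was 12% against 0%, and for T and NK cell markers 4% against 0% to 2.56%. Its macrophage and monocyte share (8%) lay within the range of the other mice (0% to 13.1%). Summed neutrophil marker levels ran from 92.6 to 988 RPKM for MUL, 33.5 to 15103 for PEM and 154 to 2929 for PLT mice, with Elane and Mpo at 0 in every cell. Mature erythroid markers summed to 1485 to 1803, 1221 to 1956 and 1036 to 1922 RPKM, with Hba-a2 and Hbb-b2 at 0. Results were also computed without marker-holding cells, those with at least 3 markers of 1 list above 0. The lists were neutrophil, mature erythroid, macrophage and monocyte, B cell, and T and NK cell.

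Single-cell values of the 35 genes were mostly either absent or high. Of 16030 values, 45.1% were 0, 21.4% were above 0 but under 1 RPKM, 6.53% lay between 1 and 10 RPKM and 27% were at 10 RPKM or more. Gapdh, a gene used by every cell, was listed at 0 in 45 cells, so a 0 here does not show absence of the transcript. A share of cells at 1 RPKM or more is therefore a share of cells in which the gene was caught. In averages over cells, fewer cells with a transcript and less RNA per cell cannot be told apart.

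Promoter sequences are shown for the isozyme pairs on which the results below turn, hexokinases Hk1 and Hk2 and lactate dehydrogenases Ldha and Ldhb. The HIF binding core is written ACGTG or GCGTG, and both strands were searched in RefSeq windows from 250 bases before to 50 bases after each gene's start (GRCm38.p6). ACGTG was found in 25 of the 48 windows of the 34 genes with a window, or 52.1%, against 19.6% of all 32851 windows. Either core was in 79.2% of these windows and in 43.8% of all. The windows of these genes were richer in G and C (median 61.7% against 52.7%), and among windows with at least 60% G and C the share with ACGTG was 65.4% against 26.5%. Below are the 150 bases before the start, 5′ to 3′ on the gene's strand, with matches to either core on either strand in capitals. Hk1 lies on the minus strand at chr10:62340422-62340571, Hk2 on the minus strand at chr6:82774455-82774604, Ldha on the plus strand at chr7:46845654-46845803 and Ldhb on the minus strand at chr6:142507958-142508107. The printed stretch held 2 matches in Hk1, 1 in Hk2, 5 in Ldha and 1 in Ldhb. Each strand was counted, so CACGTG in Ldha, which reads the same on both, gives 2 matches at 1 place. The 2 matches in Hk1 overlap. For Ldha and Hk1 the matches are therefore more than the separate places in capitals. Where a gene has several starts, the window richest in G and C is shown, and which start these cells used was not measured.
Hk1: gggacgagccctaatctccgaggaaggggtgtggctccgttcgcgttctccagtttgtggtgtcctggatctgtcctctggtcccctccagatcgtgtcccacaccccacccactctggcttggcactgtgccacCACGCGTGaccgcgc
Hk2: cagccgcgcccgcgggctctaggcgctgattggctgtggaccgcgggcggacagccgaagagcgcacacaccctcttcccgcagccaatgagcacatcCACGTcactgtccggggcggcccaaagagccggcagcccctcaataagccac
Ldha: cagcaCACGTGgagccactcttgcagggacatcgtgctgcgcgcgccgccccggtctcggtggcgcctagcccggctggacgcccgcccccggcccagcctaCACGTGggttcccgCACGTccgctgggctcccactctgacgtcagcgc
Ldhb: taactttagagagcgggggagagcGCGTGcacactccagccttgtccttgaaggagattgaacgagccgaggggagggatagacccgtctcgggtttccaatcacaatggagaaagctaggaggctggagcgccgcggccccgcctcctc

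A match describes letters and not a bound site. Ldha and Ldhb encode the subunits that make up lactate dehydrogenase.

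Levels of the 35 genes ran, as means of the 6 mice, from Mif at 539 RPKM, Ldha at 492 and Aldoa at 420 down to Pdk4 at 0.0649. These are values per length, but the gene lengths used are not given and reads of near-identical copies can be split. Comparisons between genes are therefore approximate. Gpi1 was caught in 430 of the 458 cells (93.9%), Mif in 401, Aldoa in 384 and Ldha in 366. Vegfa and Slc16a3 were each caught in 6 cells, Eno2 and Pdk4 in 5 and Egln3 in 1. The plot of levels and shares by mouse shows Aldoa, Gpi1, Pkm, Pgk1, Gapdh, Tpi1, Pgam1, Ldha, Ldhb and Mif at means of 79.5 RPKM or more in every mouse, while the transporters and hexokinases stayed at 86.2 RPKM or less and Aldoc, Eno2 and Eno3 were caught in few cells.

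**Figure D1:**
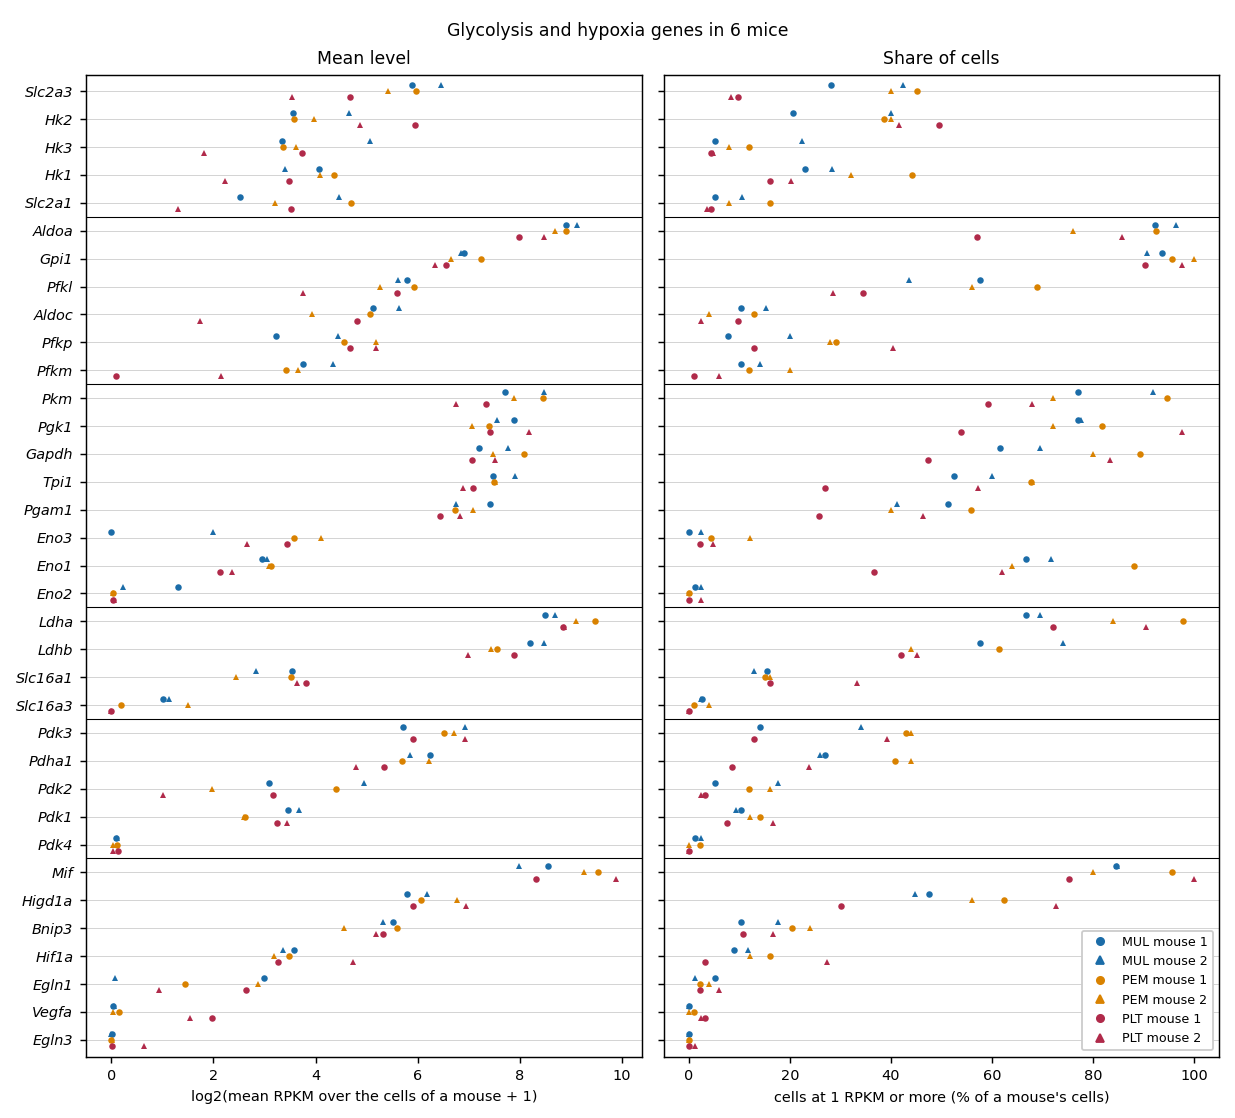
Mean level (left, log2 of mean RPKM + 1) and share of cells at 1 RPKM or more (right, percent) of the 35 genes, 1 point per mouse, ordered by role (rules between roles: glucose entry, middle steps, lower steps, lactate, pyruvate dehydrogenase control, HIF pathway). Slc2a3 in the PLT mice (9.68% and 8.33% of cells) lies to the left of the other 4 mice (28.2% to 45.2%).

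Of the 35 genes, 32 reached a mean of 1 RPKM or more in 2 mice or more and were tested, and Eno2, Pdk4 and Egln3 were not. The mouse means were compared between groups with limma on log2(mean RPKM + 1), with Benjamini-Hochberg adjustment over all 11337 genes tested. None of the 32 passed an adjusted p of 0.05 in PLT minus MUL (0.00882% of all genes did), PEM minus MUL (0%) or PLT minus PEM (0%). At an unadjusted p under 0.05 there were 7 in PLT minus MUL, where 8.41% of all genes passed. Of these 2 were higher (2.44% of all genes) and 5 lower (5.96%). In PEM minus MUL there were 3 (5.59% of all genes), all higher (2.8%) and 0 lower (2.79%). In PLT minus PEM there were 5 (8.37% of all genes), 2 of them higher (2.49%) and 3 lower (5.88%). The 3 comparisons share their groups. Vegfa reached the filter through the PLT mice alone and could only be counted as higher in PLT, so its place in these counts and in those below says nothing. Without it, 1 gene was higher and 5 lower in PLT minus MUL, and 1 higher and 3 lower in PLT minus PEM. The values below are descriptions of levels.

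The mice of the groups did not overlap for 20 of the 32 genes in PLT minus MUL, where 39.7% of all genes did not. Of the 20, 6 were higher (14.8% of all genes) and 14 lower (24.9%). In PEM minus MUL it was 11 genes (35.7% of all genes), 6 higher (17.5%) and 5 lower (18.3%). In PLT minus PEM it was 17 genes (36% of all genes), 5 higher (14.1%) and 12 lower (21.9%). Each mouse had 2 plates, which are not replicates of the condition. The 4 plates of 1 group lay apart from the 4 of the other for 5 genes in PLT minus MUL (7.82% of all genes), with Hk2 higher (2.91%) and Slc2a3, Gpi1, Eno1 and Pkm lower (4.91%). In PEM minus MUL it was 2 genes (5.44%), with Mif higher (2.75%) and Ldhb lower (2.69%), and in PLT minus PEM 4 genes (6.1%), with Hk2 higher (2.4%) and Slc2a3, Hk1 and Eno1 lower (3.7%). The median log2 fold change of the 32 genes was -0.44 in PLT minus MUL, where all genes had -0.18. It was -0.12 against -0.04 in PEM minus MUL and -0.49 against -0.13 in PLT minus PEM. Values above 0 were held by 12 of the 32 genes in PLT minus MUL (41.6% of all genes), 14 in PEM minus MUL (47.6%) and 9 in PLT minus PEM (43.6%). By role, the PLT minus MUL medians were -1.08 for glucose entry (5 genes), -0.90 for the middle steps (6), -0.45 for the lower steps (7), -0.32 for lactate (4) and -0.61 for pyruvate dehydrogenase control (4), and 0.48 for the HIF pathway (6). Without Vegfa the HIF pathway median was 0.44, with 4 of 5 genes higher. A wider list of 29 other hypoxia genes had the opposite sign, with a median of -0.44, 8 higher and 21 lower. Of the 21, Ddit4 reached the filter through the MUL mice alone and could only be counted as lower. Its place among them therefore says nothing.

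**Figure D2:**
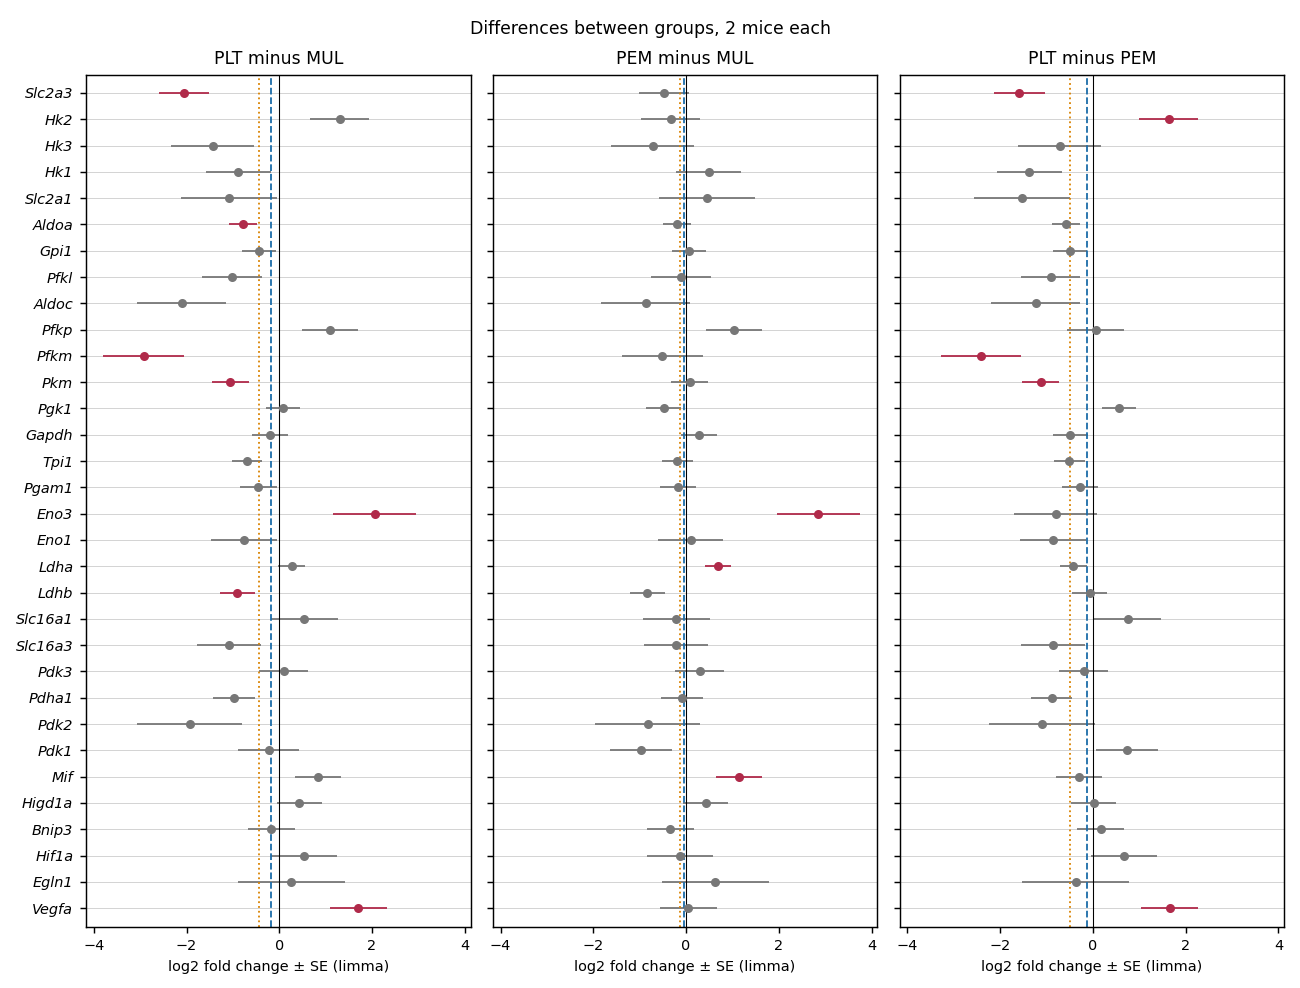
Log2 fold change with its standard error (limma) of the 32 tested genes in 3 comparisons of 2 mice against 2. Red marks an unadjusted p under 0.05, the dotted line is the median of the 32 genes and the dashed line the median of all 11337 genes, which is -0.18 in PLT minus MUL. Vegfa entered through the PLT mice alone.

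At glucose entry, the PLT mice had the lowest means of the transporter gene Slc2a3 and the highest of the hexokinase gene Hk2. Slc2a3 (GLUT3, a high-affinity glucose transporter; chromosome 6, 122727809 to 122801640, GENCODE M21) had means of 58.0 and 86.2 RPKM in MUL, 61.6 and 41.8 in PEM, and 24.6 and 10.6 in PLT mice. Both PLT mice were below all others, and so were all 4 PLT plates against the 4 of either other group. It was caught in 22 and 36 cells of the MUL mice, 42 and 10 of the PEM mice, and 9 and 7 of the PLT mice. The PLT shares were 9.68% (exact Clopper-Pearson 95% interval 4.52% to 17.6%) and 8.33% (3.42% to 16.4%), intervals that cover counting error only. The log2 fold change was -2.05 ± 0.541 (SE) in PLT minus MUL and -1.58 in PLT minus PEM, with limma adjusted p of 0.480 and 0.561. Without PLT mouse 2, PLT minus PEM was -1.01, and with 25 cells per mouse the values were -5.75 and -5.38. Among cells that caught it, the median level in PLT mice (263 and 75.2 RPKM) was not uniformly below that in MUL mice (131 and 171), while fewer cells of the PLT mice caught it. Slc2a1 (GLUT1), the widely used transporter, was caught in 37 of all cells and overlapped between the groups.

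Hexokinases phosphorylate glucose and so trap it in the cell. Hk2, the inducible isozyme, had means of 10.7 and 24.3 RPKM in MUL, 10.9 and 14.8 in PEM, and 60.6 and 28.2 in PLT mice. Both PLT mice were above the other 4, and all 4 PLT plates (27.4 to 65.7 RPKM) were above the 8 others (5.09 to 26.3). The log2 fold change was 1.63 ± 0.639 (SE) in PLT minus PEM and 1.30 in PLT minus MUL, with limma adjusted p of 0.585 and 0.625. Hk2 was caught in 20.5% and 40% of cells in MUL, 38.7% and 40% in PEM and 49.5% and 41.7% in PLT mice. Among cells that caught it, the median was 15.7 and 51.5 RPKM in MUL, 12.7 and 8.71 in PEM and 63.5 and 34.7 in PLT mice. By this median PLT mouse 2 lay below MUL mouse 2. Hk1, the housekeeping isozyme, went the other way in mean, at 15.7 and 9.56 RPKM in MUL, 19.5 and 15.9 in PEM and 10.1 and 3.69 in PLT mice, although PLT mouse 1 lay above MUL mouse 2.

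The make-up of the hexokinase pool set the PLT mice apart. This measure was chosen after the values were seen, so it is described with no test. Hk2 made up 30.2% and 36.7% of summed hexokinase RPKM (Hk1, Hk2 and Hk3) in the MUL mice, 27.5% and 35.2% in PEM mice 1 and 2, and 73.0% and 82.0% in PLT mice 1 and 2. The group means were 33.4% ± 4.59, 31.3% ± 5.49 and 77.5% ± 6.32 (SD, n = 2 mice each). By plate, the 4 PLT values lay at 70.3% to 82.5% and the 8 others at 13.2% to 46.2%. Summed hexokinase RPKM itself overlapped, at 51.0 ± 21.8 in MUL, 40.8 ± 1.58 in PEM and 58.7 ± 34.3 in PLT (SD, n = 2 mice each). Hk3, a further member of the pool, had 9.16 and 32.5 RPKM in MUL, 9.25 and 11.2 in PEM and 12.3 and 2.51 in PLT mice. It was caught in 44 cells, and in MUL mouse 1 the 3 highest of its 4 cells held 99.1% of its sum, so its share of the pool ran from 0.348% to 52.6% between the plates of that mouse. Among Hk1 and Hk2 alone, Hk2 made up 40.6% and 71.8% in MUL, 35.8% and 48.1% in PEM and 85.7% and 88.4% in PLT mice. The PLT mice again lay above the others, but the distance to MUL mouse 2 was far smaller, and PLT minus MUL was 30.9 percentage points in place of 44.1. In each of the 6 other settings run on all 6 mice (cells rescaled, 25 cells per mouse, 1800 to 3000 detected genes, no marker-holding cells, either plate alone), the lower PLT mouse lay above the highest of the other 4. The closest approach was with 25 cells per mouse, at 78.1% against 61.5%. Cells with Hk2 but no Hk1 at 1 RPKM or more were 44.1% and 32.1% of the PLT mice's cells, 16.7% and 31.8% of the MUL and 20.4% and 24% of the PEM mice's, so in cell counts MUL mouse 2 nearly reached PLT mouse 2.

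**Figure D3:**
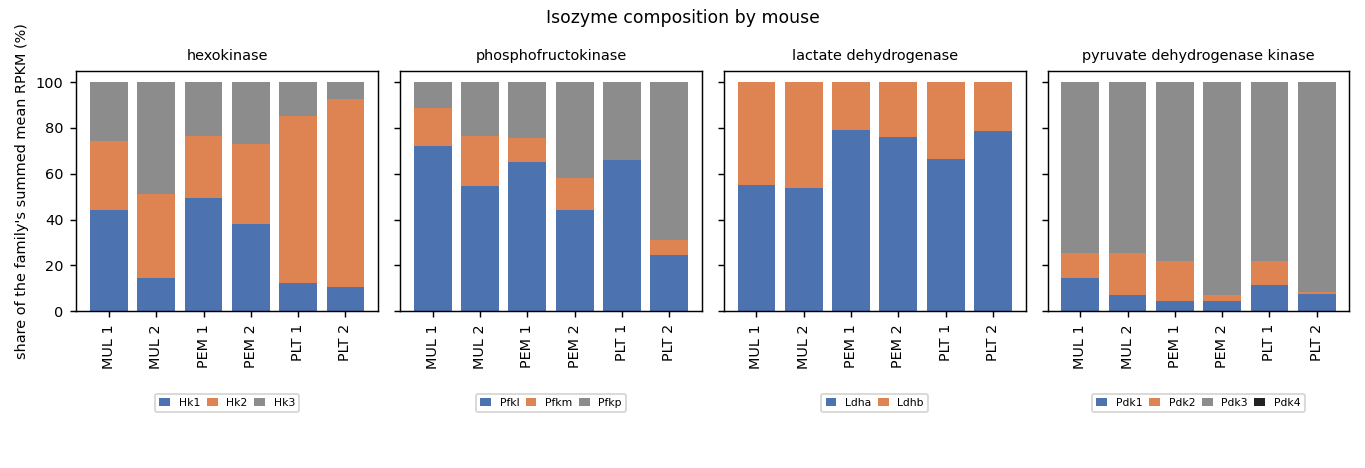
Share of each isozyme in the summed mean RPKM of its family (percent) for 4 families, 1 bar per mouse. Hk2 takes 73.0% and 82.0% of the hexokinase bars of the PLT mice and at most 36.7% of the others, and Ldha takes 53.7% and 55.3% of the lactate dehydrogenase bars of the MUL mice and at least 66.3% of the others.

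Of the middle steps, Gpi1 (glucose-6-phosphate isomerase) was the most widely caught, in 90.3% to 100% of the cells of every mouse, with means of 118 and 115 RPKM in MUL, 150 and 99.0 in PEM and 93.4 and 79.5 in PLT mice. Aldoa, the main aldolase, had 475 and 551 RPKM in MUL, 479 and 413 in PEM and 253 and 352 in PLT mice. For both genes the PLT mice were below all others. The Aldoa log2 fold change in PLT minus MUL was -0.78 ± 0.305 (SE; limma adjusted p = 0.561), and PLT mouse 1 caught it in 57.0% of its cells against 76.0% to 96.5% in the other mice. Pfkm, the muscle-type phosphofructokinase, had 12.5 and 19.2 RPKM in MUL, 9.68 and 11.6 in PEM, and 0.0648 and 3.46 in PLT mice. It rested on few cells, 42 in all, and the 3 highest cells held 47.8% to 100% of its sum in a mouse. Its log2 fold change was -2.92 in PLT minus MUL and -2.41 in PLT minus PEM (limma adjusted p of 0.480 and 0.563). Without PLT mouse 1 these were -1.89 and -1.38, and on plate P1 PLT minus MUL was -1.31.

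Of the lower steps, Pkm (pyruvate kinase, which makes pyruvate) had means of 209 and 352 RPKM in MUL, 348 and 235 in PEM, and 160 and 106 in PLT mice. Both PLT mice were below the rest, with log2 fold changes of -1.05 in PLT minus MUL and -1.13 in PLT minus PEM (limma adjusted p of 0.548 and 0.563). Without MUL mouse 2, PLT minus MUL was -0.68, and on plate P2 PLT minus PEM was -0.27. The table does not separate its M1 and M2 splice forms. Pgk1 (phosphoglycerate kinase) ran the other way in 1 PLT mouse, at 234 and 186 RPKM in MUL, 167 and 133 in PEM and 169 and 289 in PLT mice. Gapdh, Tpi1 and Pgam1 had 6-mouse means of 187, 171 and 119 RPKM.

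Eno1, usually the main enolase, was listed at only 3.36 to 7.68 RPKM, while a near-identical copy, Gm5506, had 31.5 to 64.3 RPKM, and the reads of such copies can be split or assigned to either. Their sum was 59.8 and 66.3 RPKM in MUL, 72 and 66.5 in PEM and 34.9 and 42.6 in PLT mice, lowest in both PLT mice. Eno3, the muscle enolase, was caught in 15 cells, with means of 0 and 2.97 RPKM in MUL, 11 and 16.3 in PEM and 9.87 and 5.31 in PLT mice. The 3 highest cells held at least 99.4% of its sum in every mouse where it was above 0, so its log2 fold changes (2.85 in PEM minus MUL, limma adjusted p = 0.868) describe a few cells.

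For lactate dehydrogenase, the MUL mice had the lowest Ldha means and the highest Ldhb means. Ldha, whose product favours the making of lactate, had 361 and 411 RPKM in MUL, 710 and 545 in PEM and 461 and 466 in PLT mice. Ldhb, whose product favours its use, had 292 and 354 RPKM in MUL, 187 and 172 in PEM and 234 and 125 in PLT mice. For both genes the MUL mice lay apart from the other 4. The log2 fold changes in PEM minus MUL were 0.69 ± 0.287 for Ldha and -0.84 ± 0.377 for Ldhb (SE; limma adjusted p of 0.868 for both).

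Ldha made up 55.3% and 53.7% of lactate dehydrogenase RPKM in MUL, 79.2% and 76.1% in PEM and 66.3% and 78.8% in PLT mice, a measure also chosen after the values were seen. The group means were 54.5% ± 1.09, 77.6% ± 2.22 and 72.6% ± 8.84 (SD, n = 2 mice each). Plates overlapped, since 1 plate of MUL mouse 1 reached 64.7% and 1 plate of PEM mouse 2 had 60.02%. The PEM minus MUL difference of 23.1 percentage points was 10.8 in cells with 1800 to 3000 detected genes, and PEM mouse 1 had the most detected genes per cell. That window kept 53 and 62 cells of the MUL mice but only 36 and 11 of PEM mice 1 and 2. At least 3 of 13 S and G2-M phase markers were at 1 RPKM or more in 47.4% and 43.5% of cells in MUL, 72.04% and 72% in PEM and 36.6% and 72.6% in PLT mice. At least 3 of 8 megakaryocyte markers were at that level in 14.1% and 11.8%, 38.7% and 44%, and 5.38% and 29.8% of cells in the same order. Summed levels ran from 684 to 786, 814 to 1303 and 517 to 1188 RPKM for the cell cycle list and from 398 to 400, 822 to 1629 and 310 to 733 RPKM for the megakaryocyte list, with no gene of either at 0 in all cells. Their part in the Ldha and Ldhb values was not tested. PLT minus PEM changed sign between settings and has no direction here. Cells with Ldhb but no Ldha at 1 RPKM or more numbered 13 and 21 for MUL, 0 and 0 for PEM and 10 and 2 for PLT. Cells with neither gene at that level numbered 13 and 5 for MUL, 2 and 4 for PEM and 16 and 6 for PLT. Only 2 and 4 cells of the PEM mice therefore lacked Ldha and could have been counted, so their 0 says little about Ldhb. A count of 0 in 93 and 25 cells covers only cells in which the transcript was caught. The lactate exporters were low, with Slc16a1 (MCT1) in 84 cells.

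**Figure D4:**
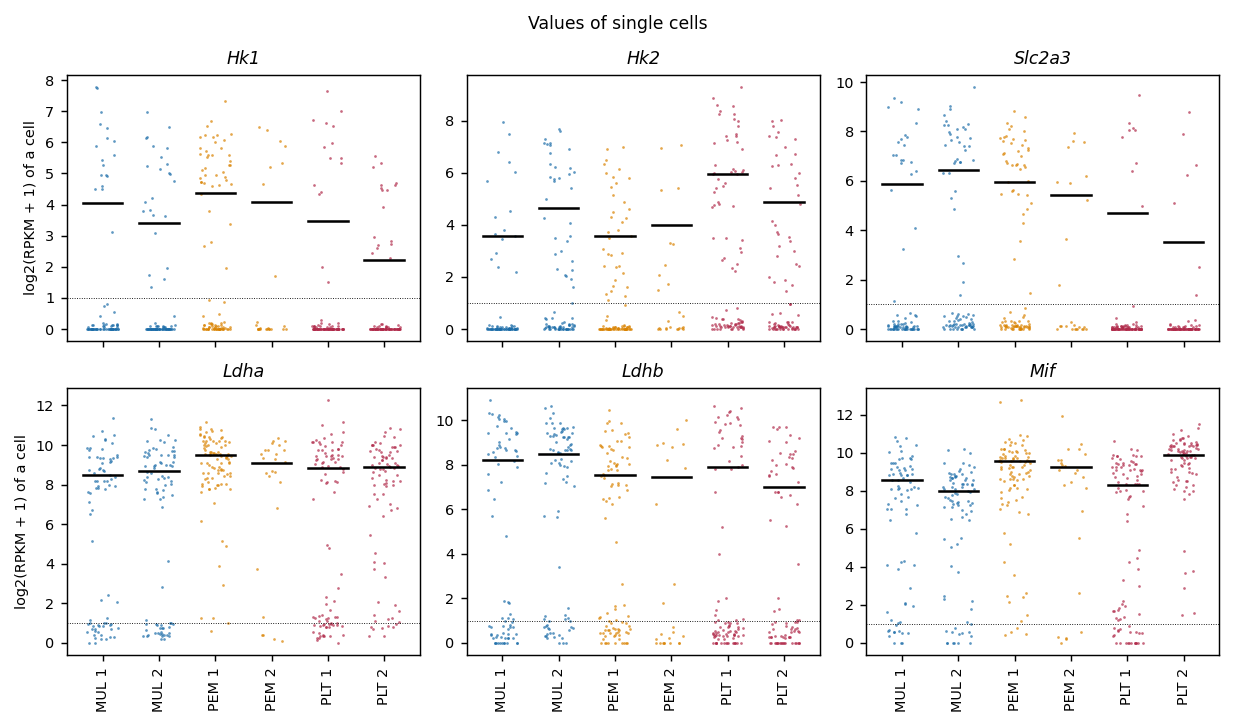
Values of single cells (log2 of RPKM + 1) for 6 genes by mouse, with a bar at the log2 of the mean RPKM + 1 and a dotted line at 1 RPKM. Cells fall into a cloud near 0 and a high cloud, and for Slc2a3 9 and 7 cells of the PLT mice lie at or above the line.

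Of the PDKs, Pdk3 was the main one in every mouse, at 74.3% to 92.9% of the summed PDK RPKM. Its means were 51.3 and 121 RPKM in MUL, 90.6 and 104 in PEM and 58.9 and 121 in PLT mice, so the groups overlapped. Pdk1, a classical HIF target, had 10.1 and 11.9 RPKM in MUL, 5.18 and 5.04 in PEM and 8.51 and 9.84 in PLT mice, with the PEM mice lowest (limma adjusted p = 0.903 in PEM minus MUL). Pdk2 varied within groups, at 7.53 and 29.8 RPKM in MUL, 20.2 and 2.92 in PEM and 7.95 and 1.01 in PLT mice. Pdk4 stayed under 0.1 RPKM in all 6 mice. Pdha1, the catalytic subunit that the PDKs act on, had 74.6 and 56.7 RPKM in MUL, 50.6 and 73.8 in PEM and 39.5 and 26.8 in PLT mice, the PLT mice lowest (log2 fold change -0.98 in PLT minus MUL, limma adjusted p = 0.606).

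In the HIF pathway, Hif1a had 10.9 and 9.35 RPKM in MUL, 10.2 and 8.13 in PEM and 8.67 and 25.5 in PLT mice, so only PLT mouse 2 stood above the rest. RNA levels do not report HIF protein, which is set by its breakdown. Mif, an abundant cytokine gene, had 371 and 250 RPKM in MUL, 740 and 612 in PEM and 315 and 947 in PLT mice. The PEM mice were above the MUL mice, on all 4 plates, while the PLT mice spanned both (log2 fold change 1.14 ± 0.496 SE in PEM minus MUL, limma adjusted p = 0.868). The cell cycle and megakaryocyte lists given beside the Ldha share were likewise higher in both PEM mice and PLT mouse 2 than in PLT mouse 1, and their part in the Mif values was not tested. Higd1a, a hypoxia-induced mitochondrial gene, had 54.6 and 71.8 RPKM in MUL, 65.5 and 108 in PEM and 58.8 and 123 in PLT mice and overlapped. Vegfa, the angiogenic growth factor and a classical HIF target, was caught in 0 and 0 MUL cells, 1 and 0 PEM cells and 3 and 2 PLT cells. Its means were 0.029 and 0.0402 RPKM in MUL, 0.112 and 0.0311 in PEM and 2.91 and 1.90 in PLT mice, and the 3 highest cells held 98.1% and 98.7% of its sum in the PLT mice. It entered the test through the PLT mice alone, so no fold change or p is given for it. The oxygen sensor Egln1 was caught in 15 cells.

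Cells with more detected genes also caught more of the 35 genes. The median was 11 and 13 for MUL, 14 and 13 for PEM and 8 and 12 for PLT mice. The median number of detected genes per cell was 2210 and 2553, 3186 and 2752, and 1869 and 2596 in the same order. Across the cells of a mouse, Spearman's rho between both measures was 0.646 to 0.872, a description over 25 to 93 cells that share depth and library. The 35 genes took 0.624% ± 0.0609 of a cell's summed RPKM for MUL, 0.626% ± 0.0826 for PEM and 0.506% ± 0.0481 for PLT (SD, n = 2 mice each), and the PLT mice (0.472% and 0.540%) were below the lowest of the others (0.568%, PEM mouse 2). Plates overlapped. Plate P1 of PLT mouse 2 had 0.611%, above both plates of MUL mouse 1 (0.578% and 0.584%), and plate P2 of PEM mouse 2 had 0.458%. The mitochondrial share of reads was 5.70%, 4.02% and 6.55% in the same groups. Results were also computed in cells with 1800 to 3000 detected genes. Mapped reads were not matched, and the part of depth and mitochondrial share in these group differences was not tested.

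**Figure D5:**
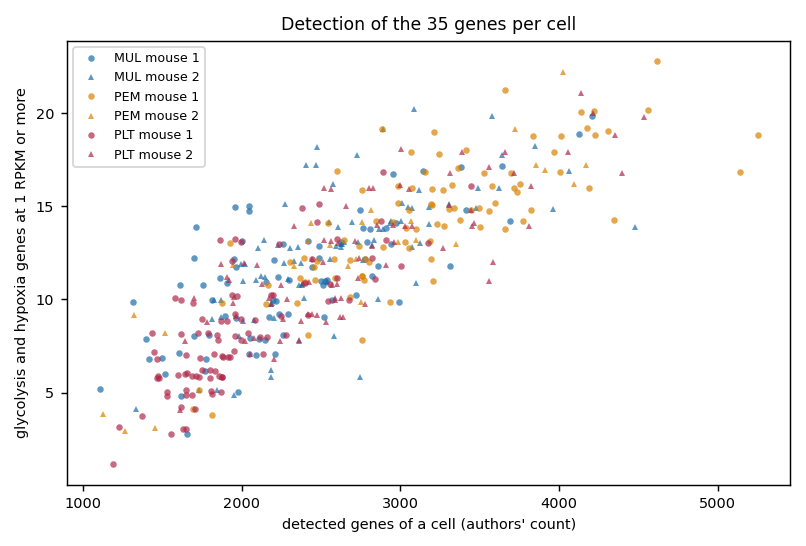
Number of the 35 genes at 1 RPKM or more in a cell against its number of detected genes (the authors' count), 1 point per cell, slightly jittered. Cells of PLT mouse 1 sit at the lower left (medians 8 and 1869) and cells of PEM mouse 1 at the upper right (14 and 3186).

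Further genes of these pathways were taken from a list of 46 on the sugar and pyruvate side (30 tested) and 37 on the hypoxia side (29 tested), and none passed the adjusted threshold in any comparison. At an unadjusted p under 0.05 in PLT minus MUL, 3 of the 30 and 4 of the 29 had lower values (5.96% of all genes) and 0 of either had higher ones (2.44%). Those on the sugar side were Fbp1, which runs a gluconeogenic step, and Pgd and Taldo1 of the pentose phosphate pathway. Fbp1 had 58.1 and 16.4 RPKM in MUL, 0 and 19.8 in PEM and 0 and 0.0139 in PLT mice. Taldo1 had 180 and 201 RPKM in MUL, 134 and 263 in PEM and 88.0 and 78.8 in PLT mice, with log2 fold changes of -1.18 in PLT minus MUL and -1.16 in PLT minus PEM (limma adjusted p of 0.514 and 0.561). Those on the hypoxia side were Ndrg1, Hif1an, Bhlhe40 and Rora. Ndrg1, a stress-induced gene, had 36.7 and 26.5 RPKM in MUL, 27.3 and 25.4 in PEM and 9.30 and 2.47 in PLT mice (log2 fold change -2.43 in PLT minus MUL, limma adjusted p = 0.480). In PEM minus MUL, Ldhd of the 30 and Rora of the 29 had lower values (2.79% of all genes). In PLT minus PEM, Taldo1 and Pgls of the 30 and Ndrg1 of the 29 had lower values (5.88%) and Ankrd37 of the 29 a higher one (2.49%). The median log2 fold change in PLT minus MUL was -0.51 for the 30 genes (11 higher, 19 lower). All genes tested had a median of -0.18, with 41.6% higher.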

How the data were processed

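Single sorted cells went into SMARTer Ultra Low RNA libraries, as the labels' protocols state. The authors deposited 1 table of RPKM values, for which the submitters' processing notes name TopHat, featureCounts and mm10. Versions, gene lengths and the read total behind the RPKM values are not given in the sources used here. A second table deposited by the authors holds each cell's count of mapped reads, its detected-gene count and the percent of reads that were mitochondrial.

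Mice were told apart by the prefix of the cell titles, and replicate numbers were given in accession order. RPKM was averaged over the cells of a mouse, and the test used log2(mean RPKM + 1) of the 6 mice, a scale on which changes of low genes are understated. A gene was kept where 2 or more mice had a mean of 1 RPKM or higher. limma 3.58.1 (R 4.3.3) fitted 1 mean per group with a trended eBayes variance (3 residual degrees of freedom) and Benjamini-Hochberg adjustment at 0.05. The fit was tested on simulated data. Whether the mice of a group are independent beyond being separate recipients is not stated, so p-values measure the spread between these mice. No cell was filtered out and no doublet caller was run. Tables were handled in Python 3.11.15.

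Members and lists were chosen with earlier results of these data known. Values of every mouse are given for members with an unadjusted p under 0.05, the 2 highest of each role, and Hif1a, Pdk1 to Pdk4 and Vegfa. The isozyme shares, Eno1's copy and the counts of cells with 1 isozyme only were added after the values were seen. Gene positions came from GENCODE M21 and promoters from RefSeq. Alternatives covered the pseudocount, filter, scaling, averaging, cells used, plates, the variance trend and leaving out each mouse.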

Additional observations from a re-analysis of the deposited data

How the results depend on the processing

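No member passed the adjusted threshold in any of the 3 comparisons under any of the 20 alternatives, with unadjusted counts of 3 to 9 in PLT minus MUL, 0 to 4 in PEM minus MUL and 0 to 7 in PLT minus PEM. Over all genes, the calls in PLT minus MUL went from 1 to 19 without a filter, 3 with a mean of at least 5 RPKM, 4 under quantile normalization, 2 with a pseudocount of 10 and 0 or 1 in the others. Without a filter, PEM minus MUL had 9 and PLT minus PEM 4. Without marker-holding cells PEM minus MUL had 1, and both had 0 otherwise. On plate P1 alone, Eno3 in PLT minus MUL had a log2 fold change of -0.20, and the cause was not tested. Single genes were followed only in the 15 pairs of gene and comparison with an unadjusted limma p under 0.05 in the main fit. The other pairs kept their sign, but sizes moved. Slc2a3 ran from -5.75 to -1.49 in PLT minus MUL and -5.38 to -1.01 in PLT minus PEM. In the same order, Pfkm ran from -4.40 to -0.55 and -3.80 to -0.71, and Pkm from -2.13 to -0.62 and -2.21 to -0.27. Hk2 in PLT minus PEM ran from 0.97 to 2.32, Aldoa in PLT minus MUL from -2.18 to -0.27, Ldhb in PLT minus MUL from -1.93 to -0.46, Ldha in PEM minus MUL from 0.37 to 2.15, Mif in PEM minus MUL from 0.86 to 1.48 and Eno3 in PEM minus MUL from 0.51 to 4.60. The members' median in PEM minus MUL (-0.12) kept its sign in only 14 of 20 alternatives, so it has no stable direction. It was 0.21 with the mean of log2 values, and also above 0 with 25 cells per mouse, without marker-holding cells, on plate P1, without MUL mouse 2 and without PEM mouse 2. In PLT minus PEM it was -0.24 without cells holding mature-cell markers and -0.22 on plate P1.

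The isozyme shares, whose alternatives were chosen after seeing the data, moved as follows, in percentage points. For Hk2, PLT minus MUL (44.1) was 51.8 in cells with 1800 to 3000 detected genes, 33.9 on plate P1, 54.3 on plate P2 and 30.9 with Hk3 left out of the family. PLT minus PEM (46.2) was 52.9 without marker-holding cells. PEM minus MUL (-2.06) had no stable sign, at -9.67 with 25 cells per mouse, 6.16 in the detected-gene window, -16.5 on plate P1, 10.3 on plate P2 and -14.2 without Hk3. For Ldha, PEM minus MUL (23.1) was 10.8 in the detected-gene window. PLT minus MUL (18.1) was 27.5 with 25 cells, 9.40 on plate P1, 28.1 on plate P2, and 11.8 to 24.3 when each mouse was left out, the lowest without PLT mouse 2. PLT minus PEM (-5.05) had no stable sign, at 9.23 with 25 cells, 10.2 in the detected-gene window, -14.5 without marker-holding cells, -12.9 on plate P1, 7.90 on plate P2, and -11.3 to 1.20 when each mouse was left out. These causes were not tested.

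No paired analysis was possible because the numbers only name the mice, by order of accession. PEM mouse 2, with 25 cells, limits the precision of every PEM value, and 2 mice a group limit all comparisons. In the detected-gene window PEM mouse 2 had 11 cells, and without marker-holding cells also 11. On plates P1 and P2 it had 14 and 11.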
